A study of Mus musculus with 7 samples.

Results

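The 9 genes described here, *Mbp*, *Mobp*, *Cnp*, *Mag*, *Mog*, *Cldn11*, *Opalin*, *Ugt8a* and *Myrf*, are those by which mature myelin-forming oligodendrocytes (OLs) of the central nervous system (CNS) are known. They were chosen by name and not by their values in these mice, though with earlier results of these data known. All 9 were among the 21965 genes of the count table, and all 9 passed the filter on low counts that left 15743 genes for testing. RNASeq had been made from spinal cord of mice killed at day 3 (72 h) after a moderate contusion of 50 kdyn at thoracic level 9, from a segment of 5 mm around the injury epicenter. The 3 mice labelled *Bmal1*-/- (2 females and 1 male) were given as knockouts of *Arntl* (*Bmal1*) with the germ-line null allele of B6.129-Arntltm1Bra/J on C57BL/6, and the 4 WT mice (2 females and 2 males) were C57BL/6, for both of which the methods name the substrain C57BL/6J. All 7 were 8 to 10 weeks old when injured, with 1 library per mouse and no uninjured mouse among them. A germ-line deletion is present in every cell of the body, 1 WT mouse was a littermate of the knockouts, and animals were not allocated to groups at random. Fewer OLs and less RNA per OL cannot be told apart in RNA of whole tissue.

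Myelin is a spiral of OL membrane, in which MBP and MOBP hold the cytoplasmic faces together while MOG and MAG sit on the outermost and innermost turns. CLDN11 seals the layers, CNP keeps cytoplasmic channels open, UGT8A makes galactosylceramide for the membrane, and MYRF is the transcription factor that switches the mature OL programme on. BMAL1 is the clock transcription factor that binds E-box sequences with CLOCK, and OLs are among the cells lost from a contused cord.

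Total counts ran from 38529644 to 44096737 per library, so that each of the 9 genes had at least 970 counts in every library and the spread between mice, not counting, limited precision. CPM, the unit of level used here, is the count scaled to a common library size with TMM factors. The gene-level count of the targeted gene *Arntl* was not lower in libraries labelled *Bmal1*-/-. It was at 24.1, 24.2 and 22.5 CPM there and at 14.7, 15.3, 11.9 and 13.4 CPM in WT. The log2 fold change was 0.77 (adjusted p = 0.0155, edgeR quasi-likelihood test, Benjamini-Hochberg adjusted). An antisense gene, *Gm45355*, overlaps it, and the strand setting of the counting is not given in the sources used here. The BMAL1 targets *Nr1d1* and *Dbp* were lower in libraries labelled *Bmal1*-/-, by log2 fold changes of -2.51 and -1.85 (adjusted p = 0.00046 and 0.00328 in the same edgeR test). WT replicate 3 stood apart, with the lowest summed neuron markers (2663 CPM) and the highest summed macrophage markers (14559 CPM) of all 7 libraries, and values of the myelin genes that rest on it are given with and without it.

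No difference between the genotypes passed the test for any of the 9 myelin genes. In the edgeR quasi-likelihood test with p adjusted by Benjamini-Hochberg over all genes, 0 of 9 passed an adjusted p of 0.05, against 1.57% of all genes tested (247 of 15743, or 0.654% called higher and 0.915% called lower). Leaving out each library in turn moved the count over all genes between 57 (without replicate 1 among those labelled *Bmal1*-/-) and 730 (WT replicate 3 left out), and the count of the 9 genes was 0 each time. At an unadjusted p under 0.05 there was 1 of 9, *Cnp*, against 20.9% of all genes. DESeq2 called 1 of 9, again *Cnp*, against 9.62% of all genes, and limma-voom called 0 against 1.31%. The fitted log2 fold changes, libraries labelled *Bmal1*-/- over WT, were positive for 5 genes and negative for 4. They ran from -0.28 for *Mbp* to 0.22 for *Cnp*, with a median of 0.04 beside -0.01 over all genes tested. Precision was close to that of other genes, with a median standard error of 0.12 for the 9 genes and 0.13 over all, and a median biological coefficient of variation of 11.8% and 13.8%.

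**Figure D1:**
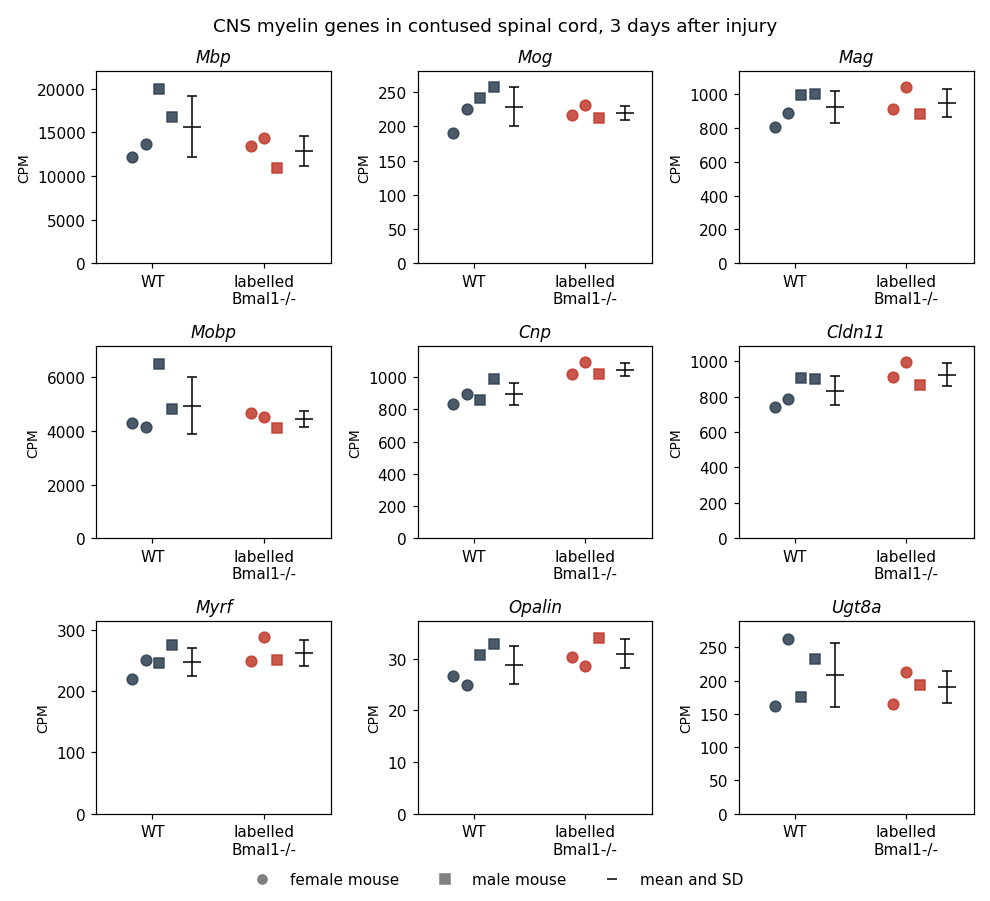
Level of each of the 9 myelin genes in CPM (y axis, from 0) in the 4 WT libraries (dark) and the 3 libraries labelled *Bmal1*-/- (red), with circles for females, squares for males and the bar and whiskers for the group mean and SD. *Cnp* is the gene whose groups do not overlap, and the male WT libraries are the highest for *Mbp*, *Mobp* and *Mog*.

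The 2 proteins that compact the membrane came from the most abundant transcripts. Per kilobase of exon, the mean level over the 7 libraries was 1707 CPM for *Mbp*, the 6th highest of all genes tested, and 689 CPM for *Mobp*, the 21st. *Cldn11* followed at 466 CPM per kilobase, *Cnp* at 264, *Mag* at 229 and *Mog* at 132. The lowest were *Ugt8a* at 44.3, *Myrf* at 29.6 and *Opalin* at 10.1 CPM per kilobase, so that the 9 genes ranked from 6 to 5107. These levels per kilobase use the exons of GENCODE for GRCm38, all isoforms merged.

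*Mbp* (ENSMUSG00000041607) lies on chromosome 18 of GRCm38 from 82475146 to 82585637, on the plus strand. Its levels stood at 13414, 14286 and 10914 CPM in libraries labelled *Bmal1*-/- and at 12187, 13665, 19939.7 and 16797 CPM in WT replicates 1 to 4. The groups overlapped: both WT females lay within the range of the libraries labelled *Bmal1*-/-, and both WT males lay above it. Group means were 12871 ± 1750.3 CPM (SD, n = 3) and 15647 ± 3447 CPM (SD, n = 4). The log2 fold change was -0.28 (SE 0.25, 95% interval -0.86 to 0.30, adjusted p = 0.492 by the edgeR quasi-likelihood test), which on the linear scale is 0.823-fold with an interval from 0.550 to 1.23. Without WT replicate 3 it was -0.14 (adjusted p = 0.672). The golli transcripts of the same locus, which neurons and immune cells also make, cannot be told apart from myelin transcripts in a gene-level count.

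*Mobp* (ENSMUSG00000032517) lies on chromosome 9 from 120149707 to 120181484, on the plus strand, and shares exonic bases with *Gm38642* on the same strand, so its count is uncertain to that extent. Its levels were 4675, 4521 and 4095 CPM in libraries labelled *Bmal1*-/- and 4289, 4159.6, 6493 and 4810.0 CPM in WT. The groups overlapped and WT replicate 3 was far the highest, as for *Mbp*. With that library the log2 fold change was -0.16 (95% interval -0.61 to 0.30, adjusted p = 0.629 in the same edgeR test), and without it 0.00 (adjusted p = 0.992).

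The 250 bases before the RefSeq start of *Mobp* and of *Cnp* are shown because *Cnp* was the gene whose groups did not overlap and *Mobp* the one whose window held the most matches to the core motif of SOX factors, the family of the OL regulator SOX10. They are from RefSeq, on GRCm38.p6, 5′ to 3′ on the plus strand, at chr9:120149492-120149741 and chr11:100574689-100574938. Capitals mark the letters ACAAAG or ACAATG on either strand.
*Mobp*: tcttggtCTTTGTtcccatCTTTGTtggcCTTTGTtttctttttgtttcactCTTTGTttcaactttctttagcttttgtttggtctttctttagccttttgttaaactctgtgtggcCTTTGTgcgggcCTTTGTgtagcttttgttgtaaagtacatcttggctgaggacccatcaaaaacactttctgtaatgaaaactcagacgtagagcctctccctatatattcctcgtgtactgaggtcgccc
*Cnp*: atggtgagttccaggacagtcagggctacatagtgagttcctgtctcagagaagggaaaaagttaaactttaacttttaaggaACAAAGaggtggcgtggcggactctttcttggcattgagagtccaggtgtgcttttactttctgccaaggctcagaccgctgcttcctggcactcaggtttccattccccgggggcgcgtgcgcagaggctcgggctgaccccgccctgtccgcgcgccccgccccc
Windows were at hand for 7 of the 9 genes (9 windows, since *Mag* has several starts), and *Mbp* and *Myrf* had none. The core was present in 4 of these 7 genes, *Mobp*, *Cnp*, *Mag* and *Opalin*, and in 25.2% of the 32851 windows of that length. Genes are counted in the first and windows in the second, and *Mag*, with several windows, had more chances of a match. *Mobp* held 6 matches, and it was the 1 window among all 32851 with at least 6. The E-box of CLOCK and BMAL1, searched as CACGTG, which reads the same on both strands, was in 0 of the 7 genes and in 6.02% of all windows. These matches describe letters and not bound sites.

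*Cnp* (ENSMUSG00000006782), the phosphodiesterase of the cytoplasmic channels, lies on chromosome 11 from 100574904 to 100591729, on the plus strand. Levels of 1022, 1092 and 1022 CPM in libraries labelled *Bmal1*-/- stood above all of the 836, 898, 856 and 992 CPM of WT. The groups did not overlap, as in 26.9% of all genes tested and, for genes higher in libraries labelled *Bmal1*-/-, 13.4%. Means were 1045 ± 40.4 CPM (SD, n = 3) and 896 ± 69.1 CPM (SD, n = 4), the log2 fold change was 0.22 (SE 0.10, 95% interval 0.00 to 0.45) and the unadjusted p of 0.0498 became 0.239 after Benjamini-Hochberg adjustment in edgeR. Without WT replicate 3 the log2 fold change was 0.20 (adjusted p = 0.217 in edgeR). DESeq2 on all 7 libraries gave 0.23, with an adjusted p of 0.0481. On simulated data DESeq2 made 51 false calls where edgeR made 7. Over the 16 alternatives its log2 fold change stayed between 0.19 and 0.29 and its adjusted p between 0.0481 and 0.534. Exons of *Dnajc7* overlap *Cnp* on the opposite strand, so reads of the 2 genes may have been mixed if strand was ignored.

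*Mag* and *Mog*, which encode the proteins of the innermost and outermost turns, had intervals on both sides of 0. *Mag* (ENSMUSG00000036634; chromosome 7, 30899176 to 30914873, minus strand) was at 914, 1042 and 884 CPM in libraries labelled *Bmal1*-/- and at 804, 886, 994 and 1003 CPM in WT. Replicate 2 labelled *Bmal1*-/- was the highest library and WT replicate 1 the lowest, and the other 5 were interleaved. The log2 fold change of *Mag* was 0.04 (95% interval -0.23 to 0.31, adjusted p = 0.852). *Mog* (ENSMUSG00000076439; chromosome 17, 37010743 to 37023398, minus strand) was at 216, 232 and 213 CPM against 191, 225, 242 and 257 CPM in WT. The values labelled *Bmal1*-/- lay inside the WT range, and the log2 fold change was -0.05 (95% interval -0.30 to 0.20, adjusted p = 0.779). Both adjusted p-values are from the edgeR quasi-likelihood test, as are those that follow.

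*Cldn11* (ENSMUSG00000037625; chromosome 3, 31149920 to 31164324, plus strand), the tight junction claudin of CNS myelin, was at 909, 992 and 867 CPM in libraries labelled *Bmal1*-/- and at 742, 785, 906 and 898 CPM in WT. The 2 highest libraries were the females labelled *Bmal1*-/- and the 2 lowest were WT females, while the 3 males lay between. Its log2 fold change was 0.15 (95% interval -0.11 to 0.40, adjusted p = 0.420). *Opalin* (ENSMUSG00000050121; chromosome 19, 41061710 to 41077113, minus strand), a sialylated membrane protein of OL loops, was at 30.3, 28.7 and 34.1 CPM against 26.6, 24.9, 30.8 and 32.9 CPM in WT, with overlapping groups and a log2 fold change of 0.11 (95% interval -0.16 to 0.38, adjusted p = 0.564).

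The enzyme of galactosylceramide synthesis and the regulator MYRF came from less abundant transcripts. *Ugt8a* (ENSMUSG00000032854; chromosome 3, 125865271 to 125938619, minus strand) was at 165, 213 and 193 CPM in libraries labelled *Bmal1*-/- and at 162, 263, 176 and 233 CPM in WT. WT libraries held both extremes, and the log2 fold change was -0.13 (95% interval -0.56 to 0.30, adjusted p = 0.666). *Myrf* (ENSMUSG00000036098; chromosome 19, 10208272 to 10240748, minus strand) was at 248, 287 and 251 CPM against 219, 251, 245 and 274 CPM in WT. Here too the groups overlapped, with a log2 fold change of 0.08 (95% interval -0.14 to 0.31, adjusted p = 0.601). The intervals of *Myrf*, *Mog*, *Mag*, *Opalin* and *Cldn11* all lay within a fold of 0.811 to 1.32, whereas those of *Mbp*, *Mobp* and *Ugt8a* reached down to 0.550, 0.654 and 0.677.

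**Figure D2:**
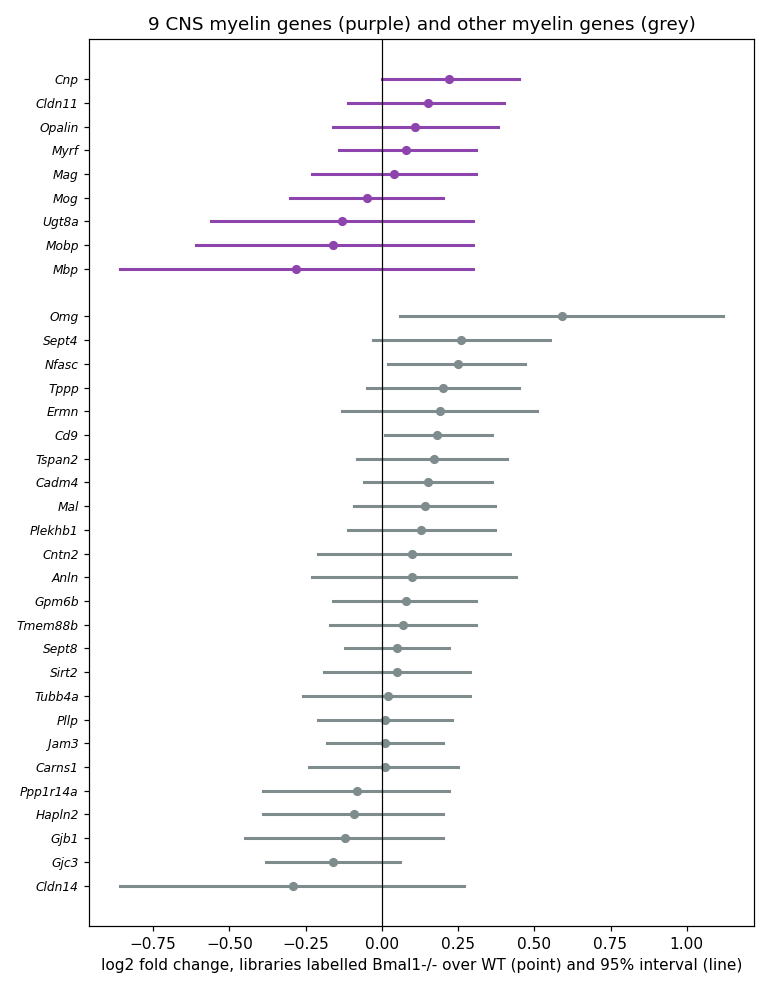
Fitted log2 fold change, libraries labelled *Bmal1*-/- over WT (point), with its 95% interval (line) for the 9 myelin genes (purple) and other myelin structural and membrane genes (grey), on the x axis with 0 as no difference. The 9 points lie between -0.28 and 0.22, and the widest intervals of the 9 are those of *Mbp*, *Mobp* and *Ugt8a*.

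Sex moved with several of these values. Among WT mice the 2 males were above the 2 females by log2 0.51 for *Mbp*, 0.42 for *Mobp* and 0.31 for *Opalin*, but by only 0.09 for *Cnp* and by -0.06 for *Ugt8a*. Among males, the single library labelled *Bmal1*-/- was below the mean of the WT males by log2 -0.75 for *Mbp*, -0.46 for *Mobp*, -0.23 for *Mog* and -0.17 for *Mag*, and above it by 0.15 for *Cnp*. WT replicate 3 is 1 of the 2 WT males. Without it the remaining WT male was above the WT females by 0.38 for *Mbp*, 0.19 for *Mobp*, 0.19 for *Cnp* and 0.13 for *Ugt8a*, the last with a changed sign. The male contrast between genotypes then became -0.62 for *Mbp*, -0.23 for *Mobp* and 0.04 for *Cnp*, from 1 library each. Among females, 2 against 2, the fitted log2 fold changes were 0.10 for *Mbp*, 0.13 for *Mobp*, 0.11 for *Mog*, 0.21 for *Mag*, 0.19 for *Myrf* and -0.17 for *Ugt8a*. *Cldn11* and *Myrf* were below the WT males by -0.06 and -0.05. *Mbp*, *Mobp*, *Mog*, *Mag*, *Cldn11* and *Myrf* thus had opposite signs in the 2 sexes, also without WT replicate 3. The smallest p-values in females were those of *Cldn11* (0.32, adjusted p = 0.0768), *Cnp* (0.29, adjusted p = 0.0918) and *Opalin* (0.20, adjusted p = 0.166), all from edgeR on the 4 female libraries, and 0 of 9 passed. The interaction of genotype and sex passed for 0 of the 9 genes, with a smallest adjusted p of 0.401 in edgeR, and none was under 0.05 unadjusted. Over all genes that interaction also called 0, with 1934 at an unadjusted p under 0.05. The male contrast has 1 library labelled *Bmal1*-/- and no replicate check. With sex as a covariate the 9 genes kept their signs and 0 passed.

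The summed counts of the 9 genes made up 2.13%, 2.22% and 1.82% of the libraries labelled *Bmal1*-/- and 1.98%, 2.14%, 3.03% and 2.55% of the WT libraries. The groups overlapped, with WT replicate 3 the highest and the male labelled *Bmal1*-/- the lowest. *Mbp* alone supplied most of these counts, 59.1% to 62.9% of the sum in libraries labelled *Bmal1*-/- and 62.6% to 66.7% in WT. *Mobp* supplied 19.9% to 22.2% and 19.0% to 22.0%. *Cnp* supplied 4.73%, 4.81% and 5.53% in libraries labelled *Bmal1*-/- and 4.30%, 4.25%, 2.87% and 3.92% in WT, which did not overlap. Shares of *Mag* (4.23% to 4.79% against 3.32% to 4.19%) and *Cldn11* (4.21% to 4.69% against 3.03% to 3.81%) did not overlap either. Those of the other 6 genes did. All shares of a library are parts of the same sum, so a larger share of *Mbp* leaves less for the others. The shares are therefore not independent of each other. In CPM both *Mag* and *Cldn11* overlapped between the groups, with log2 fold changes of 0.04 and 0.15. How often such shares separate by chance was not tested.

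Ratios of counts within a library, which do not depend on its scaling, separated some of the genes. They were picked after the values had been seen and are given without a test. *Mbp* to *Mag* was 14.7, 13.7 and 12.3 in libraries labelled *Bmal1*-/- and 15.1, 15.4, 20.1 and 16.7 in WT, so that all ratios labelled *Bmal1*-/- were below all WT ratios. *Cnp* to *Mbp* was 0.0762, 0.0764 and 0.0937 against 0.0686, 0.0657, 0.0429 and 0.0590, again with no overlap. *Cldn11* to *Mag* was 0.994, 0.951 and 0.980 against 0.922, 0.886, 0.912 and 0.895. In these 3 ratios the order of the groups did not rest on WT replicate 3, since the other WT libraries were on the same side. The ratios share *Mbp* or *Mag* with each other, and how often ratios of other gene pairs separate was not tested. The ratios of *Mobp* to *Mag* (4.34 to 5.11 against 4.70 to 6.53), *Mbp* to *Mobp* (2.66 to 3.16 against 2.84 to 3.49), *Mog* to *Mag* (0.223 to 0.241 against 0.238 to 0.256) and *Myrf* to *Mag* (0.272 to 0.283 against 0.246 to 0.283) overlapped.

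**Figure D3:**
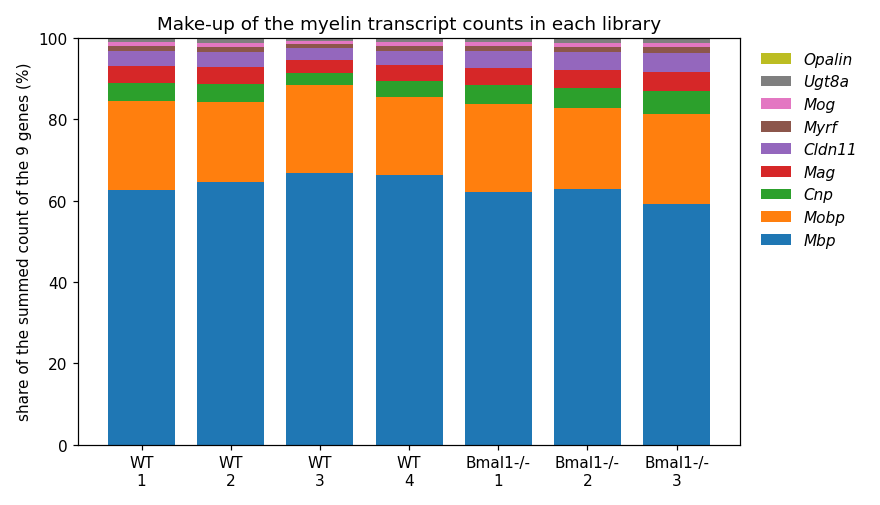
Share of each gene (colour) in the summed count of the 9 myelin genes, in % (y axis, 0 to 100), for each library (x axis). *Mbp* and *Mobp* fill most of every bar, and the *Cnp* band is 4.73% to 5.53% in libraries labelled *Bmal1*-/- and 2.87% to 4.30% in WT.

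How the 9 genes varied across the 7 libraries is described here by Pearson's r on log2 CPM without a test, since the libraries share genotype, sex and injury differences. *Mbp* went with *Mobp* (r = 0.89), *Mog* (0.77) and *Mag* (0.68), and *Mag* with *Cldn11* (0.89), *Mog* (0.88) and *Myrf* (0.86). *Cnp* ran with *Myrf* (0.78) and *Cldn11* (0.74), and had -0.24 with *Mbp* and -0.31 with *Mobp*. Those negative values rest on WT replicate 3, since over the other 6 libraries *Cnp* had 0.20 with *Mbp* and 0.40 with *Mobp*. In these 6 *Mbp* with *Mobp* stood at 0.80 and *Cnp* with *Cldn11* at 0.97. *Opalin* and *Ugt8a* had no r above 0.59 over the 7 libraries, and -0.20 with each other. The mean log2 level of the 9 genes, each centred on its own mean, was -0.03, 0.09 and -0.05 in libraries labelled *Bmal1*-/- and -0.21, -0.04, 0.10 and 0.13 in WT, so the WT mice spanned the others.

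The 10 genes whose levels were most like that mean over the 7 libraries were *Brpf3* and *Npc1* (r = 0.99 each), *Ptk2* and *Rel* (0.97), *Pllp* (0.96), and *Psat1*, *Gcm2*, *Tmem220*, *Rffl* and *Otud7b* (0.95). *Pllp*, which encodes plasmolipin of myelin, is the only one of them on a myelin list. With 7 points such a ranking is unstable, and only 1 of the 10 was also among the first 10 by Spearman's rho. The 27 other myelin genes had a median r of 0.71 with that mean, and the 15734 tested genes outside the 9 had a median of 0.01.

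None of the other structural and membrane genes of myelin was called by edgeR. Of 27 tested, 0 passed in edgeR and 4 had an unadjusted p under 0.05, against 20.9% of all genes. DESeq2, which called 9.62% of all genes, called 1 (*Nfasc*), and limma-voom called 0. In edgeR 21 log2 fold changes were positive and 6 negative, and their median was 0.07. *Tubb4a* and *Plekhb1*, among the 3 highest in CPM, had log2 fold changes of 0.02 and 0.13. Among the smallest p-values were those of *Omg*, an inhibitor of neurite growth on the OL surface (log2 fold change 0.59, adjusted p = 0.212), and *Nfasc*, whose glial form anchors paranodal loops (0.25, adjusted p = 0.213), both in edgeR. *Omg* and *Nfasc* are also made by neurons, whose markers were lowest in WT replicate 3, where *Omg* (46.9 CPM) and *Nfasc* (619 CPM) were at their lowest too. Without that library their log2 fold changes were 0.42 and 0.19. The part of those cells was not tested.

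Of 16 enzymes and carriers for myelin lipids and metabolites 0 passed in edgeR, and 4 were under 0.05 unadjusted, against 20.9% of all genes. The median log2 fold change was -0.01. *Gamt*, the last enzyme of creatine synthesis, was at 13.8, 15.7 and 14.2 CPM in libraries labelled *Bmal1*-/- and at 20.4, 19.0, 17.1 and 20.1 CPM in WT. Its groups did not overlap, and the log2 fold change was -0.40 (SE 0.09, adjusted p = 0.0858). The lipid droplet protein gene *Plin3* (-0.31, adjusted p = 0.157) and the fatty acid elongase gene *Elovl7* (-0.27, adjusted p = 0.161) did not overlap either. Of the 16 genes 4 were lower without overlap, as were 13.5% of all genes tested. The 3 highest in CPM, *Trf*, *Car2* and *Aatk*, had log2 fold changes of -0.02, 0.11 and 0.05. *Trf*, the transferrin that OLs make in quantity, was at 1285 CPM in WT replicate 3 and at 757, 765 and 797 CPM in the other WT libraries. Without that library *Trf* had 0.20 (adjusted p = 0.312) and *Gamt* passed (-0.45, adjusted p = 0.0261 in edgeR), in a fit that called 4.66% of all genes.

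Among 18 regulators and receptors of myelination 0 passed in edgeR, and 3 were under 0.05 unadjusted, against 20.9% of all genes. The median log2 fold change was 0.00, and 2 of the 18 were lower without overlap, against 13.5% of all genes tested. The nearest to the threshold was *Dusp15*, a phosphatase gene that MYRF and SOX10 switch on in OLs. It was at 34.1, 35.7 and 32.0 CPM in libraries labelled *Bmal1*-/- and at 41.6, 47.3, 40.5 and 46.3 CPM in WT, with no overlap and a log2 fold change of -0.37 (SE 0.08, adjusted p = 0.0737). Without WT replicate 3 it passed, at -0.41 (adjusted p = 0.0281 in edgeR), in a fit that called 4.66% of all genes. *Lpar1*, a lysophosphatidic acid receptor of OLs that other cells also make, had -0.52 (adjusted p = 0.108) and *Nkx6-2* 0.30 (adjusted p = 0.196). The lineage factors *Sox10* (0.02) and *Olig1* (0.09) and the protease gene *Adamts4* (0.20) overlapped between the groups.

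Genes of earlier OL stages were tested beside them. Of 13 genes of committed precursors and newly formed OLs, 12 could be tested (*Casr* could not) and 0 passed in edgeR. Unadjusted, 4 were under 0.05, against 20.9% of all genes, and the median log2 fold change was 0.08. *Cemip2* (-0.35, adjusted p = 0.102), *Fyn* (0.18, adjusted p = 0.181) and *Samd4b* (-0.19, adjusted p = 0.194) had the smallest p, and *Bcas1* (-0.46), *Cyfip2* (0.42) and *Tnr* (0.45, adjusted p = 0.237) were the highest in CPM. *Bcas1* was at 1941 CPM in WT replicate 3 and between 864 and 1093 CPM in the other 6 libraries. Without that library *Bcas1* had -0.17, *Cyfip2* 0.21 and *Tnr* 0.29, and none passed. Of 13 OL precursor (OPC) genes 0 passed, 3 were under 0.05 unadjusted, against 20.9% of all genes, and the median was 0.11. *Lhfpl3* (0.32, adjusted p = 0.176), *Vcan* (0.24, adjusted p = 0.210) and *Sox6* (0.18, adjusted p = 0.237) were those 3, and *Gpr37l1* (-0.01) and *Ptprz1* (0.26) were not among them. Without WT replicate 3 *Lhfpl3* passed (0.23, adjusted p = 0.0391 in edgeR) and *Ptprz1* had 0.12, in a fit that called 4.66% of all genes. Apart from values given without WT replicate 3, where 15664 genes were tested, every adjusted p for these lists is from the same edgeR test over 15743 genes.

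Markers of other cells in the segment moved with genotype in several lists, and their part in the values above was not tested. Schwann cells, which also express *Mbp* and *Mag* and can enter from the roots, were represented by 12 markers, 11 of them tested (*Pmp2* was not). Of these, 2 were lower and 0 higher in edgeR, *Egr2* (log2 fold change -1.09, adjusted p = 0.0155) and *Cdh19* (-0.89, adjusted p = 0.0362), and the median was -1.46. The summed level was 236 to 301 CPM in libraries labelled *Bmal1*-/- and 339 to 718 CPM in WT. Most of the sum in libraries labelled *Bmal1*-/- was *Pmp22* (172, 197 and 149 CPM) and *Sox2* (58.5, 51.8 and 52.4 CPM). The sum therefore says little of the less abundant markers. *Prx*, the periaxin gene of peripheral myelin, was at 2.06, 3.30 and 1.62 CPM in libraries labelled *Bmal1*-/- and at 23.7, 37.7, 10.4 and 5.22 CPM in WT (log2 fold change -3.04, adjusted p = 0.0869 in edgeR, and -3.25 with adjusted p = 0.0492 without WT replicate 3). It was highest in the WT females. What Schwann cells add to the *Mbp* count was not tested. *Pmp22* and *Sox2* had log2 fold changes of -0.61 (adjusted p = 0.108) and 0.05.

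Skeletal muscle markers were lower for 10 of 11 genes in edgeR (*Acta1*, *Ckm*, *Myh1*, *Tnnc2*, *Tnnt3*, *Atp2a1*, *Mylpf*, *Myl1*, *Tnni2* and *Actn3*), their median log2 fold change being -3.25 and a summed level of 9.18 to 10.9 CPM against 62.2 to 85.2 CPM in WT. Endothelial markers had 1 of 9 lower (*Cdh5*, log2 fold change -0.85, adjusted p = 0.0466), and sums of 413 to 479.9 CPM against 500.1 to 848 CPM. Of 9 fibroblast markers 0 passed, with sums of 954 to 3185 CPM against 2486 to 3144 CPM. That overlap rested on replicate 2 labelled *Bmal1*-/- (3185 CPM), since replicates 1 and 3 were at 1169.7 and 954 CPM, below all WT libraries. Among 13 neuron markers 0 passed, all 13 log2 fold changes were positive (median 0.55), and the sums of 6502 to 7816 CPM lay above 2663 to 6346 CPM in WT. Astrocyte markers summed to 18471 to 20799.5 CPM against 11678 to 17268 CPM (0 of 11 passed), microglia markers to 1729 to 2031 CPM against 1856 to 2407 CPM (0 of 10) and macrophage markers to 7834 to 9238 CPM against 6207 to 14559 CPM (0 of 13). No listed marker was at 0 in all libraries. The neuron genes *Snap25*, *Nefl*, *Nefm*, *Slc32a1*, *Gad1* and *Thy1* had log2 fold changes of 0.39 to 0.83. For astrocytes, *Gfap* had 0.42, *Slc1a2* 0.53, *Atp1b2* 0.36, *Slc1a3* -0.44 and *Aldh1l1* -0.47. The microglia genes *Csf1r*, *Tmem119*, *Fcrls* and *Olfml3* ran from -0.51 to -0.08, and the macrophage genes *Arg1*, *Ccr2*, *Cd36*, *Lyz2*, *Spp1* and *Gpnmb* from -1.26 to 0.26. *Col1a2*, *Col3a1*, *Fn1*, *Lum* and *Pdgfrb* of fibroblasts ran from -1.47 to -0.31, and *Pecam1*, *Cldn5*, *Flt1*, *Tek* and *Kdr* of endothelium from -0.67 to -0.14, none of these past the threshold. Without WT replicate 3 *Gad1* (0.63), *Slc1a3* (-0.56), *Aldh1l1* (-0.55), *Tek* (-0.39) and *Kdr* (-0.46) passed in edgeR, in a fit that called 4.66% of all genes. The neuron and astrocyte sums lay higher in all libraries labelled *Bmal1*-/- than in any WT library. The mean log2 level over the astrocyte genes, which is not led by *Gfap*, overlapped, at 0.20, 0.18 and 0.25 relative to the WT mean against 0.02, 0.21, -0.53 and 0.29 in WT, while the summed level of the 9 myelin genes overlapped, at 18473 to 22694 CPM against 19458 to 29883 CPM.

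**Figure D4:**
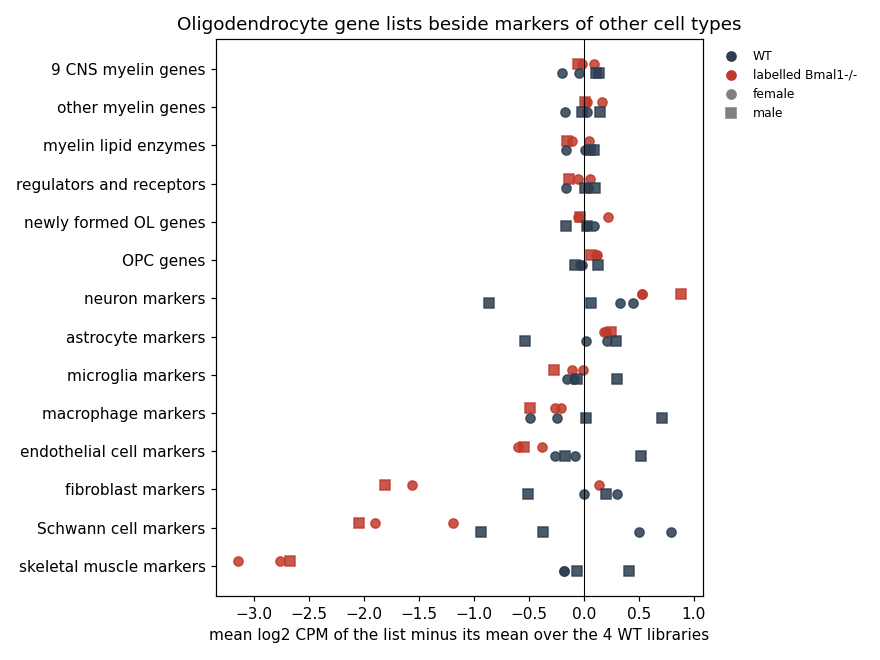
Mean log2 CPM of each gene list minus its mean over the 4 WT libraries (x axis) for each library, dark for WT and red for libraries labelled *Bmal1*-/-, circles for females and squares for males. The lists of the OL lineage stay between -0.20 and 0.22 in every library, whereas the muscle and Schwann cell lists lie lower in every library labelled *Bmal1*-/- than in WT.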

How the data were processed

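Stranded poly-A libraries (TruSeq) were made by the authors from 1 mouse each, aligned to GRCm38 with Tophat2 and counted per gene with HTSeq (0.10.0 by the submitters' processing notes, which also name FastQC 0.10.1). The annotation release and the strand setting of counting are not given in the sources used here. The deposited values are raw counts, checked to be whole numbers with unequal totals. Of 21965 genes 3039 had no count, and 21939 identifiers matched GENCODE M21 for GRCm38, from which positions, exon lengths and overlaps came.

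Counts were filtered with filterByExpr, scaled with TMM and tested with edgeR 4.0.16 (quasi-likelihood test on genotype, Benjamini-Hochberg adjustment over 15743 genes, threshold 0.05) in R 4.3.3. CPM and log2 CPM (prior count 2) describe levels. On simulated data edgeR recovered 75% of 2-fold and 89.9% of 4-fold changes, and its 95% intervals held the true value for 95.2% of genes. No smaller change was simulated, so these shares do not give the power for differences as small as those of the 9 genes. False calls numbered 7 in edgeR, 5 in limma-voom and 51 in DESeq2, which alone called *Cnp* and *Nfasc*. The members and all lists were chosen with earlier results of these data known. All 9 members were named, and from each other list the 3 genes of highest CPM, the 3 of smallest p and any past 0.05; some genes that meet this rule are not reported here. The 10 most similar genes were taken by Pearson's r. Alternatives were DESeq2 1.42.0, limma-voom (limma 3.58.1), RLE and upper-quartile scaling, a looser filter (1 count in any library) and another (mean count of 10), a term for sex, a block for replicate number, leaving out single libraries, and females only. This last, and the correlations and contrasts within sex without WT replicate 3, were chosen after seeing the data. The 7 mice are separate animals. Plots were drawn with matplotlib 3.10.9.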

Additional observations from a re-analysis of the deposited data

Results flagged for a closer look

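Of 102 named genes and groups examined among the 4 WT libraries, 5 had 1 library whose gap to the nearest other exceeded 0.829 of the WT range, and chance gives about 1 in 20. None of the 9 myelin genes was among them. WT replicate 3 was high for *Trf* (gap of 0.924 of the range), *Mylpf* (0.940) and *Tek* (0.954) and low for *Slc1a3* (0.849). WT replicate 4 was high for *Tnnc2* (0.846).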

How the results depend on the processing

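Over 16 alternatives, 144 values of the 9 myelin genes held 1 past the threshold and 8 with a changed sign. The 1 was *Cnp* in DESeq2 (log2 fold change 0.23, adjusted p = 0.0481), so that DESeq2 called 1 of the 9 genes and 1 of the 27 other myelin genes (*Nfasc*), where all other alternatives called 0 of both. The changed signs were *Mbp* 0.10, *Mog* 0.11 and *Mobp* 0.13 in females only, *Mog* 0.01 with the replicate block and 0.01 without WT replicate 4, *Mag* -0.03 without WT replicate 1 and -0.03 without replicate 2 of those labelled *Bmal1*-/-, and *Mobp* 0.00 without WT replicate 3. With each library left out *Mog* ran from -0.13 to 0.01, *Mag* from -0.03 to 0.08 and *Mobp* from -0.24 to 0.00. The cause was not tested. The median log2 fold change of the 9 genes was 0.19 in females only and -0.03 to 0.08 with each library left out. The count of genes changed among all genes moved most, from 247 to 1513 (599 higher and 914 lower) in DESeq2, 757 in females only, and 57 (without replicate 1 of the libraries labelled *Bmal1*-/-) to 730 (without WT replicate 3) with each library left out; it was 179 and 73 without replicates 2 and 3 of the libraries labelled *Bmal1*-/- and 81, 140 and 125 without WT replicates 1, 2 and 4. With replicate number as a block 0 genes were called; same-numbered libraries correlated at -0.17, 0.18 and -0.29, so the numbers do not pair the mice, and WT replicate 4 has no partner. A fit that called 0 of all genes cannot show whether calls of the 9 genes depend on the block. The spread between 3 and 4 mice, not depth, limited the myelin genes.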
